A study of Mus musculus with 2 samples.

Results

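The genes of the cell division cycle, 40 in number, were followed through the cells of the mouse olfactory epithelium, the sheet at the back of the nose that makes new sensory neurons throughout life. The genes were chosen by name, and all 40 were found among the 32534 features of both count tables: 19 act in S phase, when DNA is copied, and 21 in G2 and M phase, when the cell prepares to divide and divides. Single cells were profiled with a droplet method that counts the 3′ ends of RNA molecules by unique molecular identifiers (UMIs). One library came from a mouse heterozygous for the transgene Tg(Or8a1-OR1A1,-MAPT/mCherry)D736Feins, built around the human odorant receptor OR1A1 with an mCherry reporter (9 weeks old, female). The other came from a mouse whose genotype is labelled WT (8 weeks old, female), from a cross of 10G4-V2.2-#7/Jax with Bl6/129SF1/J. The first of these reads as the name of a line, and the count tables of both libraries hold an added feature called 10G4; whether this animal carried that line's allele was not examined here, and "wild type" follows the genotype label. Age and strain thus differed along with the transgene, each genotype had 1 library, and a difference between libraries cannot be told apart from a difference between these 2 animals or preparations. No test between genotypes was therefore possible, and the exact 95% intervals below cover counting error only.

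After removal of barcodes under 5000 UMIs, under 500 genes or over 10% mitochondrial UMIs, 1809 barcodes remained in the transgenic library and 1135 in the wild-type library, with medians of 14276 and 12863 UMIs. One barcode of at least 5000 UMIs was shared by the 2 libraries. Barcodes were grouped into 29 clusters with the 40 genes and 106 further cell cycle genes left out, and clusters were named from marker genes as globose basal cell-like (GBC-like), immediate neuronal precursor-like (INP-like), immature and mature olfactory sensory neuron-like (OSN-like), horizontal basal cell-like (HBC-like) and others. In transgenic GBC-like barcodes the markers Kit and Hes6 stood at 158 and 1190 CPM, the UMIs of a gene scaled to the class total (counts per 1000000). In transgenic INP-like barcodes Neurod1 reached 1578 CPM. Gap43 reached 2540 CPM in immature, Omp 4977 CPM in mature and Krt5 1565 CPM in HBC-like barcodes.

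A cell copies its DNA once per cycle. Origins are licensed by loading the MCM helicase, cyclin E starts S phase, and PCNA and its partners follow the fork. Cyclins A and B with the kinase Cdk1 then drive mitosis, Aurora and Polo kinases build the spindle, and the anaphase-promoting complex with its activator Cdc20 ends it. In the olfactory epithelium, horizontal basal cells are a mostly quiet reserve, globose basal cells are the dividing progenitors, and their daughters pass through a precursor stage marked by Neurog1 and Neurod1 before becoming neurons that no longer divide.

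Cell cycle RNA was concentrated in few classes. The level, meaning UMIs of the 40 genes per 10000 UMIs, was 112 (110 to 113) in the 51 transgenic GBC-like barcodes and 114 (110 to 118) in the 9 wild-type ones. In INP-like barcodes it was 35.3 (34.3 to 36.3) for the transgenic library and 27.3 (25.5 to 29.2) for the wild type. Transgenic immature OSN-like, mature OSN-like and HBC-like barcodes held 5.93, 3.56 and 5.38, and the wild-type ones 5.21, 4.40 and 6.06. RNA outside cells, taken from barcodes under 100 UMIs, held 6.01 in the transgenic library and 4.96 in the wild type, a level like that of the HBC-like, immature and mature barcodes. The highest levels outside the neuronal lineage were those of blood cells. In the wild-type library they were 135 in 30 erythroid-like, 122 in 24 neutrophil precursor-like and 82.0 in 46 myeloid progenitor-like barcodes. The same classes of the transgenic library held, in that order, 62.1 in 3 barcodes, 140 in 1 barcode and 58.3 in 20 barcodes.

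**Figure D1:**
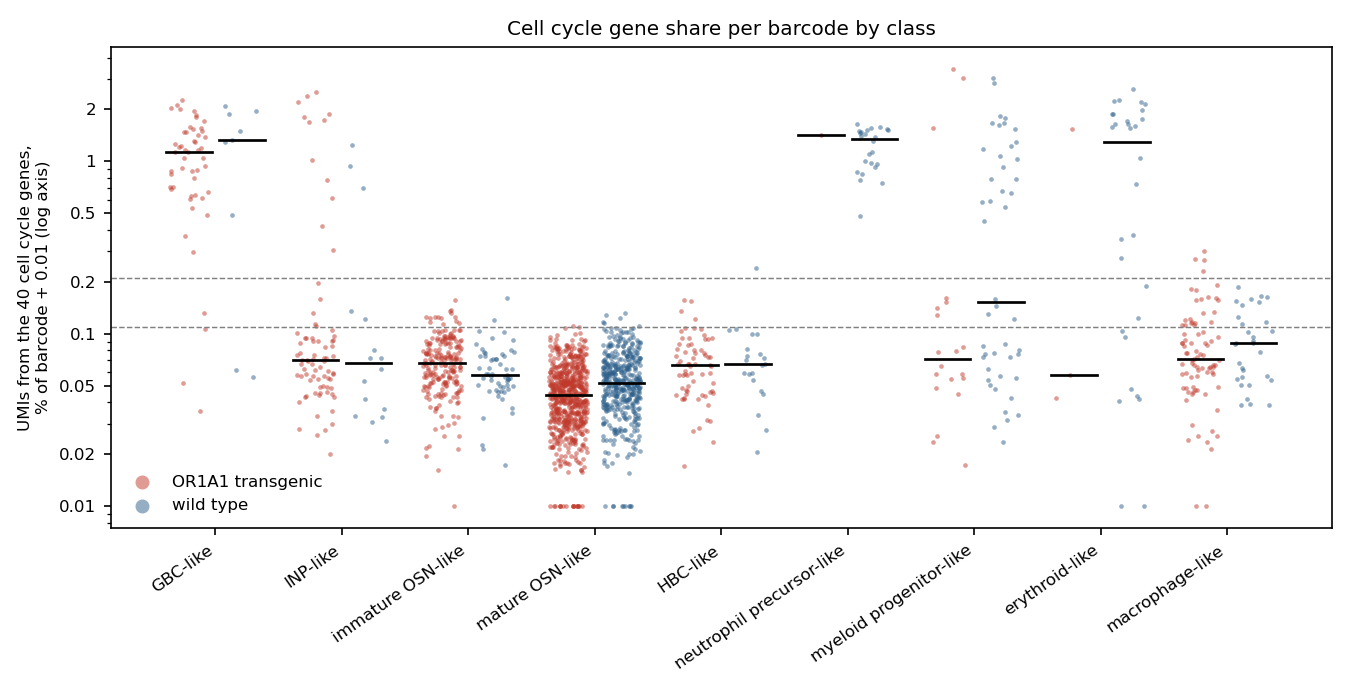
Percent of each barcode's UMIs from the 40 cell cycle genes (log axis, 0.01 added) in 9 classes, transgenic left and wild type right in each class; points are barcodes, black bars medians and dashed lines the 0.1% and 0.2% thresholds. GBC-like and neutrophil precursor-like barcodes lie almost wholly above 0.2%, INP-like barcodes split into 2 sets, and mature OSN-like barcodes all lie below 0.2%.

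A barcode was called cycling when at least 0.1% of its UMIs and at least 3 genes came from the 40; since several quiet classes reach into the range just above 0.1%, the stricter share of 0.2% is given beside it. By the 0.1% rule, 147 of 1809 transgenic barcodes were cycling (8.13%, 6.91 to 9.48) and 142 of 1135 wild-type barcodes (12.5%, 10.6 to 14.6). At 0.2% the counts were 78 (4.31%) and 88 (7.75%). Between 0.1% and 0.2% lay 82 transgenic and 87 wild-type barcodes by share alone, against 20 and 35 between 0.2% and 0.5%, so the lower threshold falls on the shoulder of the quiet barcodes. Of the 78 transgenic barcodes at 0.2%, 47 were GBC-like (60.3%) and 12 INP-like (15.4%). Of the 88 wild-type barcodes at 0.2%, 7 were GBC-like (7.95%) and 3 INP-like (3.41%), whereas 24 were neutrophil precursor-like (27.3%), 22 myeloid progenitor-like (25%) and 20 erythroid-like (22.7%).

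Globose basal-like cells were nearly all in cycle. In the transgenic library 48 of 51 GBC-like barcodes passed 0.1% and 47 passed 0.2%, and in the wild type 7 of 9 passed both. The median share of UMIs from the 40 genes was 1.12% in transgenic and 1.33% in wild-type GBC-like barcodes. GBC-like barcodes were deeper than the rest, with medians of 26427 and 33996 UMIs, and with every barcode thinned to 5000 UMIs 49 of 51 and 7 of 9 passed 0.1%. The cluster was made without the 40 genes, but other proliferation genes such as Pclaf, a PCNA-binding factor, and H1f5, a linker histone, were among its 10 leading genes, so membership in it was not independent of proliferation. The 3 transgenic GBC-like barcodes under 0.1% carried 2177 CPM of Bowman's gland markers, against 35.6 CPM in the 47 barcodes at 0.2%, and the 2 wild-type ones carried 6710 CPM of mature neuron markers against 101 CPM in the 7 at 0.2%. The 3 transgenic barcodes also carried 1856 CPM of fibroblast markers, against 18.9 CPM in the 47. Erythroid markers stood at 6634 CPM in the 47, against 87.7 CPM in the 3 and 75.4 CPM in the 7 wild-type barcodes at 0.2%; they came from 1 transgenic barcode with 24.5% of its UMIs from erythroid markers, while the other 50 had at most 0.080%. Without it the transgenic level was 111 (110 to 113), 46 of 50 barcodes reached 0.2%, and the ratio of S to G2/M UMIs was 0.259. For the 5 barcodes under 0.1%, the part of other cell types was not tested.

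Among the S-phase genes, the sliding clamp Pcna stood highest in GBC-like barcodes, at 303 CPM (transgenic) and 431 CPM (wild type). Slbp, which binds histone mRNA, had 219 and 138 CPM, and Rrm1, the large subunit of ribonucleotide reductase, had 196 and 151 CPM. Among the helicase subunits, Mcm3 had 166 and 118 CPM and Mcm2, the lowest in the transgenic library, 75.1 and 90.8 CPM. The G1/S cyclins were scarce: Ccne2 had 35.8 and 26.9 CPM and Ccne1 19.7 and 16.8 CPM. The other 12 S genes lay between Cdc6, a licensing factor, at 23.2 and 37.0 CPM and the nucleotide or fork genes Tyms (160 and 151 CPM) and Rrm2 (112 and 158 CPM). Among the G2/M genes, Hmgb2, a chromatin protein, had 3731 and 4292 CPM and alone made up 33.4% and 37.7% of the member UMIs in the GBC-like barcodes at 0.2%. Top2a, which untangles chromosomes, had 1017 and 871 CPM, the kinetochore protein Cenpf 661 and 441 CPM, the ubiquitin-conjugating enzyme Ube2c 564 and 710 CPM, and the proliferation mark Mki67 509 and 515 CPM. Cdk1 stood at 252 and 283 CPM, and Ccnb1 at 148 CPM in both. The other 14 G2/M genes lay between the kinase Aurka, at 63.9 and 53.8 CPM, and Nusap1, at 306 and 333 CPM.

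All 39 members measured (at least 20 CPM in 1 of the 2 classes) were at least 2-fold higher in GBC-like than in mature OSN-like barcodes in each library (5 CPM added). Of all features measured, 23.7% were 2-fold higher in that comparison in the transgenic library and 24.3% in the wild type. The member not measured was Ccne1. The median log2 ratio was 4.38 in the transgenic library, against -0.01 over all features measured. The smallest difference was that of Slbp, with 219 CPM in GBC-like and 54.9 CPM in mature OSN-like transgenic barcodes.

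The region just before the start of these genes is shown because known motifs of S-phase and G2/M genes lie there. E2F factors act on S-phase genes, while the MuvB complex acts on G2/M genes through the cell cycle genes homology region (CHR), often beside CCAAT boxes bound by NF-Y. RefSeq promoter sequences of build GRCm38.p6 were matched for 34 of the 40 genes, and the 250 bases before the start were searched on both strands (Aurkb, Ccna2, Ccne2, Gins2, Mcm4 and Tpx2 were not matched). The CHR, spelled TTTGAA, was in 8 of 18 G2/M promoters (44.4%) and 3 of 16 S promoters (18.8%), against 18.3% of all 27018 genes with a promoter in the table. An E2F motif, spelled TTTGGCGC, TTTCCCGC, TTTCGCGC or TTTGCCGC, was in 1 of 18 G2/M promoters (5.56%) and 6 of 16 S promoters (37.5%), against 2.16% of all genes. CCAAT was in 15 of 18 G2/M promoters (83.3%) and 12 of 16 S promoters (75%), against 37.5% of all genes. The 150 bases before the start follow for the 3 members of each phase with the highest CPM in transgenic GBC-like barcodes among those that have 1 listed start and hold the CHR (G2/M) or an E2F motif (S) in that stretch. Letters in capitals mark the CHR, CCAAT and E2F spellings on either strand, and overlapping E2F matches run together; in Mcm5 one of them begins before the stretch.
Hmgb2 (G2/M, GRCm38.p6, chr8:57511693-57511842, plus strand): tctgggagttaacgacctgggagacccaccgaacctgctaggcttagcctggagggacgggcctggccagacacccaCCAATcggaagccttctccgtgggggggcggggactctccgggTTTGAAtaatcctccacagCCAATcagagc
Top2a (G2/M, GRCm38.p6, chr11:99024190-99024339, minus strand): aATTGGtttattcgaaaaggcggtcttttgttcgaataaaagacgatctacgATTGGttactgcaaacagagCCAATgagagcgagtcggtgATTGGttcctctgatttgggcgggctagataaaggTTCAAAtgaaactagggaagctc
Ube2c (G2/M, GRCm38.p6, chr2:164769779-164769928, plus strand): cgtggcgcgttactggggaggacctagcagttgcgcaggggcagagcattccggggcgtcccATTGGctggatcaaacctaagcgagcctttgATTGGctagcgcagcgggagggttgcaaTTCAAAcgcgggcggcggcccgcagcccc
Mcm6 (S, GRCm38.p6, chr1:128359706-128359855, minus strand): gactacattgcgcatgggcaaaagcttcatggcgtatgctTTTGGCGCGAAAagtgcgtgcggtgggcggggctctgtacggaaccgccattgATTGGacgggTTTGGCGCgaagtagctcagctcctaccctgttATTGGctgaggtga
Dtl (S, GRCm38.p6, chr1:191575545-191575694, minus strand): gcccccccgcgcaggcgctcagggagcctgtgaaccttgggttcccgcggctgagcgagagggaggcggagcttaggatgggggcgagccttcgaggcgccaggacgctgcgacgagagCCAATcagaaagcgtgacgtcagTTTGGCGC
Mcm5 (S, GRCm38.p6, chr8:75109359-75109508, plus strand): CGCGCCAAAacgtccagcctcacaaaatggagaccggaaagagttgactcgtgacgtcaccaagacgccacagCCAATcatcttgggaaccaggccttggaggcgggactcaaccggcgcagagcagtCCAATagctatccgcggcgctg
A match shows only that these letters are present. In Hmgb2, Top2a and Ube2c the CHR began 30, 23 and 29 bases before the start, with 2, 4 and 2 CCAAT boxes in the stretch shown. In Mcm6 there were 3 E2F matches and in Dtl 1, beginning 8 bases before the start.

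Within transgenic GBC-like barcodes, S genes and G2/M genes each correlated more among themselves than with each other, Rrm1 excepted. Within these 51 barcodes of 1 library, the S share and the G2/M share of UMIs had a Pearson correlation of -0.28. By rank (Spearman) it was -0.17. In the 9 wild-type barcodes the 2 measures were -0.16 and 0.07. In the transgenic barcodes, single S genes correlated with the other S genes with a mean r of 0.206 to 0.604. There, G2/M genes correlated with the other G2/M genes with a mean r of 0.451 to 0.712. Pcna (0.604), the chromatin reader Uhrf1 (0.567) and Mcm6 (0.544) followed the S genes most closely, and Cenpf (0.712), the spindle protein Nusap1 (0.686) and Ube2c (0.682) the G2/M genes. Rrm1 was the exception, with a mean r of 0.206 with S genes and 0.352 with G2/M genes. Counting a phase as present at 0.1% of UMIs, 36 of the 51 transgenic barcodes had both, 10 had G2/M alone, 1 had S alone and 4 neither. Of the 9 wild-type barcodes, 4 had both, 3 G2/M alone and 2 neither. Summed over the class, S genes gave 0.253 (0.243 to 0.263) UMIs for each G2/M UMI among transgenic barcodes and 0.240 (0.220 to 0.262) among wild-type ones; without Hmgb2 the transgenic ratio was 0.435, and at a Leiden resolution of 2 it was 0.344.

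A cyclin that the phase call did not use differed between the phases as well. In transgenic GBC-like barcodes Ccnd1, the cyclin that couples growth signals to the cycle, had 1076 CPM in the 36 barcodes with both phases and 555 CPM in the 10 with G2/M alone. In the wild type the 4 barcodes with both phases had 909 CPM and the 3 with G2/M alone 0 CPM. The S genes themselves, which made the call, show its contrast: Pcna had 408 CPM with both phases and 64.2 CPM with G2/M alone, and Ccne2 had 51.6 CPM and 0 CPM. Cdc20 ran the other way, with 105.2 CPM in barcodes with both phases and 234 CPM with G2/M alone.

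**Figure D2:**
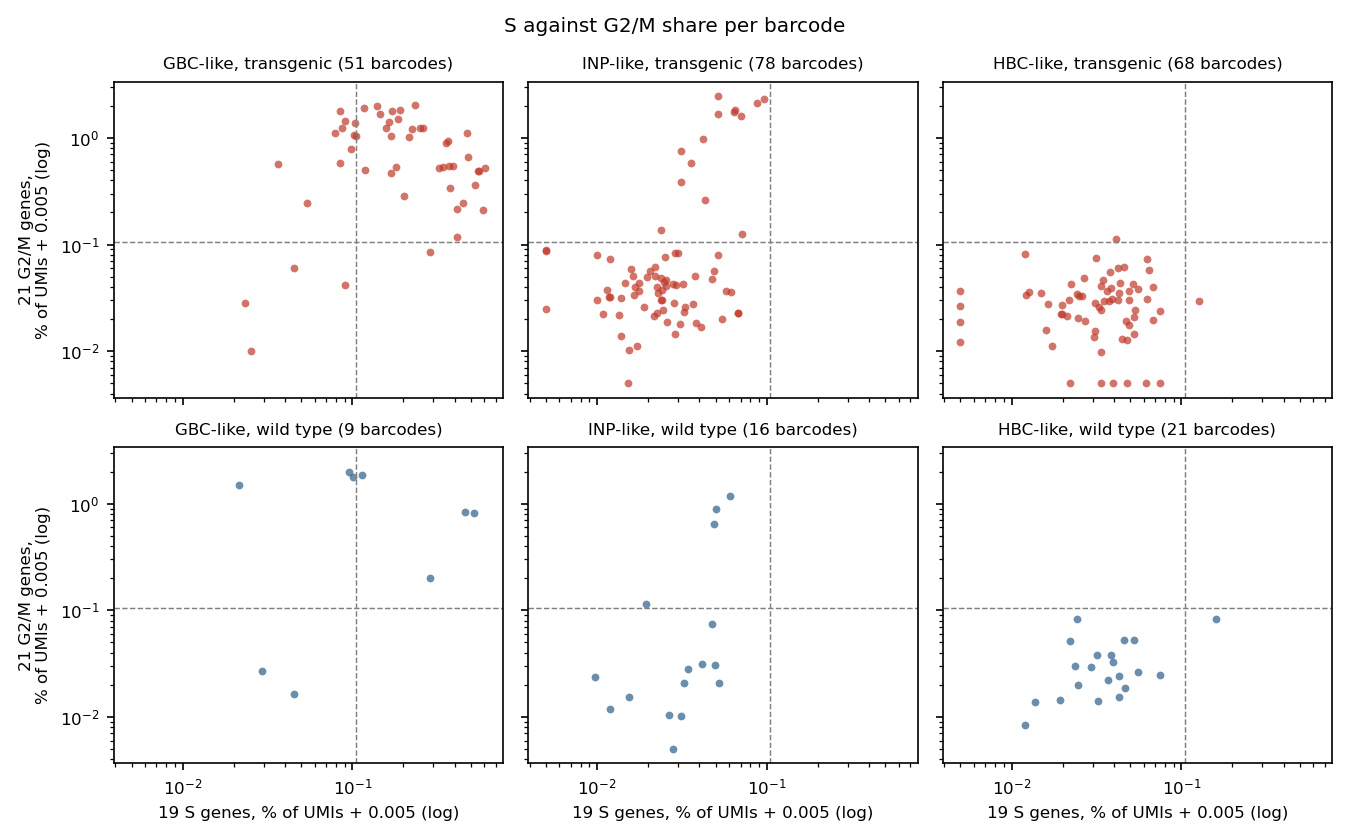
Percent of each barcode's UMIs from the 19 S genes (horizontal) and the 21 G2/M genes (vertical), both on log axes with 0.005 added, for GBC-like, INP-like and HBC-like barcodes, transgenic above and wild type below; dashed lines mark 0.1%. GBC-like barcodes spread over both phases, INP-like barcodes with G2/M genes at 0.1% lie in the upper left, with S shares under 0.1%, and nearly all HBC-like barcodes lie in the lower left.

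Immediate precursor-like cells fell into 2 sets, and those that passed 0.1% for a phase passed it for G2/M genes and not for S genes. The threshold was the same for both phases, although their levels differ. In transgenic GBC-like barcodes S genes held 22.6 and G2/M genes 89.2 UMIs per 10000. G2/M alone was also called in 46 of 62 wild-type and 5 of 15 transgenic neutrophil-like barcodes. Whether barcodes called for G2/M alone were dividing was not tested. In the transgenic library 12 of 78 INP-like barcodes reached 0.2% (15.4%, 8.21 to 25.3) and in the wild type 3 of 16 (18.8%, 4.05 to 45.6), while the median barcode held 0.060% and 0.058%. G2/M genes at 0.1%, with S genes under 0.1%, were found in 14 of 78 transgenic (17.9%) and 4 of 16 wild-type barcodes (25%). S genes at 0.1% were found in 0 of 78 and 0 of 16, which allows up to 3.85% and 18.8%; when all barcodes were thinned to 5000 UMIs, 5 or 1 of the 78 transgenic barcodes passed in 2 draws and 0 of the 16 wild-type ones. S genes were under the threshold but not absent: the barcodes with G2/M genes at 0.1% held 5.31 (4.49 to 6.22) S UMIs per 10000 in the transgenic library and 4.08 (2.90 to 5.57) in the wild type, against 2.08 (1.81 to 2.38) and 2.61 (1.97 to 3.39) in those with neither phase. Their Pcna level was 52.7 CPM (transgenic) and 73.2 CPM (wild type), against 38.2 and 28.0 CPM with neither phase. Across INP-like barcodes the S and G2/M shares had a Pearson correlation of 0.63 over 78 transgenic and 0.60 over 16 wild-type barcodes, each set from 1 library. By rank (Spearman) the correlation was weaker in the transgenic library, at 0.29, and 0.57 in the wild type. The ratio of S to G2/M UMIs was 0.086 (0.077 to 0.095) in transgenic INP-like barcodes and 0.126 (0.101 to 0.157) in wild-type ones. Where the INP-like class begins depends on the clustering: with the cell cycle genes kept in the clustering the transgenic INP-like level was 9.58 (and that of GBC-like barcodes 132), with a minimum of 2000 UMIs it was 9.50, at a Leiden resolution of 2 it was 63.1 and with at most 5% mitochondrial UMIs 65.2.

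In the 14 transgenic INP-like barcodes with G2/M genes, Ccnb1 had 320 CPM, Cdc20 429 CPM and Ube2c, over the whole class, 434 CPM. These barcodes were otherwise precursors: Neurod1 had 2021 CPM, against 1454 CPM in the 64 INP-like barcodes with neither phase. Ccnd1 had 2 UMIs in them (7.03 CPM). Cdkn1b, the inhibitor p27 that holds cyclin-dependent kinases in check, had 278 CPM in the INP-like barcodes with G2/M genes and 136 CPM in those with neither phase.

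Between INP-like and GBC-like barcodes, 34 of the 39 members measured were 2-fold lower in the transgenic library, where 12.7% of all features measured were 2-fold lower, and 36 of 39 in the wild type, where 18.5% were. In the transgenic library these were all 18 S genes measured and 16 of 21 G2/M genes. Their median log2 ratio was -2.66 for S genes and -1.54 for G2/M genes. In the wild type, 17 of 18 S genes and 19 of 21 G2/M genes were 2-fold lower, with medians of -2.89 and -2.49, so the distance between the 2 sets was smaller there. In the transgenic library the 5 G2/M genes that were not 2-fold lower were the spindle genes Aurka and Tpx2, the kinetochore gene Cenpf, and Ube2c (434 CPM in INP-like, 564 CPM in GBC-like) and Cdc20 (94.2 and 124 CPM), both of the anaphase-promoting complex pathway. Mcm7 was the S gene with the smallest difference, at 62.8 CPM in INP-like and 159 CPM in GBC-like barcodes. Slbp was lower here than in the HBC-like, GBC-like, immature or mature classes, at 18.4 CPM (transgenic) and 25.8 CPM (wild type).

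The same decline was seen without clusters, by sorting barcodes on marker UMIs alone (at least 2 UMIs of Neurog1 or Neurod1, or Gap43 or Omp at 0.05% of UMIs). In the transgenic library the level was 81.5 in 45 barcodes with Neurog1 and 8.58 in 32 with Neurod1 alone. It was 23.1 in 2 barcodes with Neurog1 or Neurod1 and Gap43, 5.99 in 127 with Gap43, 4.95 in 71 with Gap43 and Omp and 3.78 in 775 with Omp. In the wild-type library the same steps had 95.1 (11 barcodes), 9.54 (8), 2.30 (1), 5.28 (31), 5.11 (18) and 4.29 (485). The share of transgenic barcodes at 0.2% was 18 of 45 with Neurog1 (40%, 25.7 to 55.7), 2 of 32 with Neurod1 (6.25%, 0.766 to 20.8) and 0 of 127 with Gap43, which allows up to 2.36%. One of 775 with Omp alone reached it. The steep drop thus lay between barcodes that still held Neurog1 and those with Neurod1 alone. Of the 18 transgenic barcodes with Neurog1 that reached 0.2%, 9 were GBC-like, 8 INP-like and 1 fibroblast-like. By the phase call, 6 of the 45 had S and G2/M genes, 13 G2/M alone and 1 S alone.

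**Figure D3:**
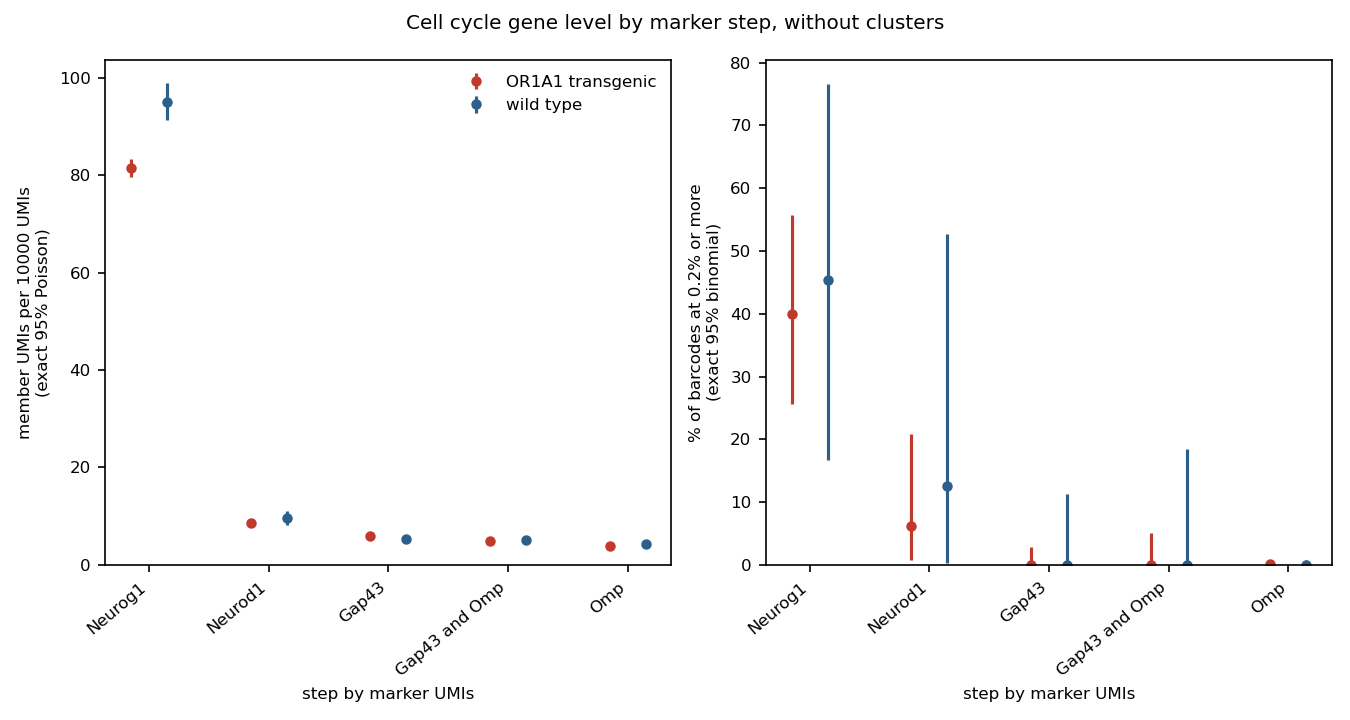
Cell cycle gene level (left, UMIs of the 40 genes per 10000 UMIs with exact 95% Poisson intervals) and percent of barcodes with at least 0.2% of UMIs from them (right, exact 95% binomial intervals) at 5 of the marker steps (the step of 2 and 1 barcodes is not drawn), transgenic left and wild type right at each step. Both measures are high in the Neurog1 step and low from the Neurod1 step on.

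In immature OSN-like barcodes the G2/M genes were lower than in INP-like ones, and the few S genes measured were not 2-fold lower in the transgenic library. Between immature OSN-like and INP-like barcodes, 17 of 21 members measured were 2-fold lower in the transgenic library, where 7.22% of all features measured were. These were all 17 G2/M genes and none of the 4 S genes. In the wild type 13 of 18 were 2-fold lower, with 9.88% of all features. Ube2c had 2.12 CPM in immature and 434 CPM in INP-like transgenic barcodes. Slbp alone was 2-fold higher, with 66.0 CPM in immature and 18.4 CPM in INP-like barcodes of the transgenic library and 64.9 and 25.8 CPM in the wild type. Mature OSN-like barcodes held 1.77 S UMIs per 10000 in both libraries, near the 1.81 (1.63 to 2.00) and 1.56 (1.41 to 1.73) of RNA outside cells, and 1.79 and 2.64 G2/M UMIs per 10000, below its 4.20 and 3.39. By gene, Pcna had 55.4 CPM (transgenic) and 58.6 CPM (wild type) in mature OSN-like barcodes, beside 35.5 and 32.9 CPM in RNA outside cells. Slbp had 54.9 and 43.7 CPM beside 35.5 and 31.2 CPM, Rrm1 15.4 and 15.3 CPM beside 12.6 and 13.9 CPM, and Hmgb2 163 and 237 CPM beside 202 and 194 CPM. At these levels, RNA from outside and RNA of the neurons were not separated. Between immature and mature OSN-like transgenic barcodes, 1 of 5 members measured was 2-fold higher, where 12.7% of all features measured were. None of 658 transgenic or 440 wild-type mature OSN-like barcodes reached 0.2%, which allows up to 0.456% and 0.682%.

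Plk1 set the libraries apart in the neuron-like classes. This Polo kinase of mitosis had 0 UMIs in the 658 transgenic mature OSN-like barcodes and 67 UMIs in 59 of the 440 wild-type ones (12.0 CPM, 9.33 to 15.3). No UMI in the transgenic class allows up to 0.456% of barcodes with one, against 13.4% in the wild type. In immature OSN-like barcodes there were 0 UMIs in 216 transgenic barcodes and 5 UMIs in 4 of 57 wild-type ones, and in the unnamed cluster led by Calb2 0 in 124 and 4 UMIs in 4 of 24. RNA outside cells held Plk1 at 4.20 CPM (1.92 to 7.97) in the transgenic library and 3.03 CPM (1.22 to 6.25) in the wild type. Elsewhere the order varied: HBC-like barcodes had 2 transgenic UMIs and 0 wild-type ones, tuft-type and monocyte-like barcodes none in either library, and endothelial-like barcodes 7 UMIs, all in 1 barcode, in the transgenic library and 0 in the wild type. In GBC-like barcodes it had 75.8 CPM (transgenic) and 70.6 CPM (wild type). Of the other mitotic kinases, Aurka had 0.988 and 1.80 CPM in mature OSN-like barcodes, Aurkb 0 and 0.180 CPM and Bub1 0 CPM in both. Among the further mitosis genes, the securin Pttg1 was also unlike, at 0.220 CPM in the transgenic mature class and 37.4 CPM in the wild-type one, beside 8.87 and 17.8 CPM in RNA outside cells; it is named here after its values were seen. Transgene, strain, age and library cannot be told apart as the source of either difference.

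**Figure D4:**
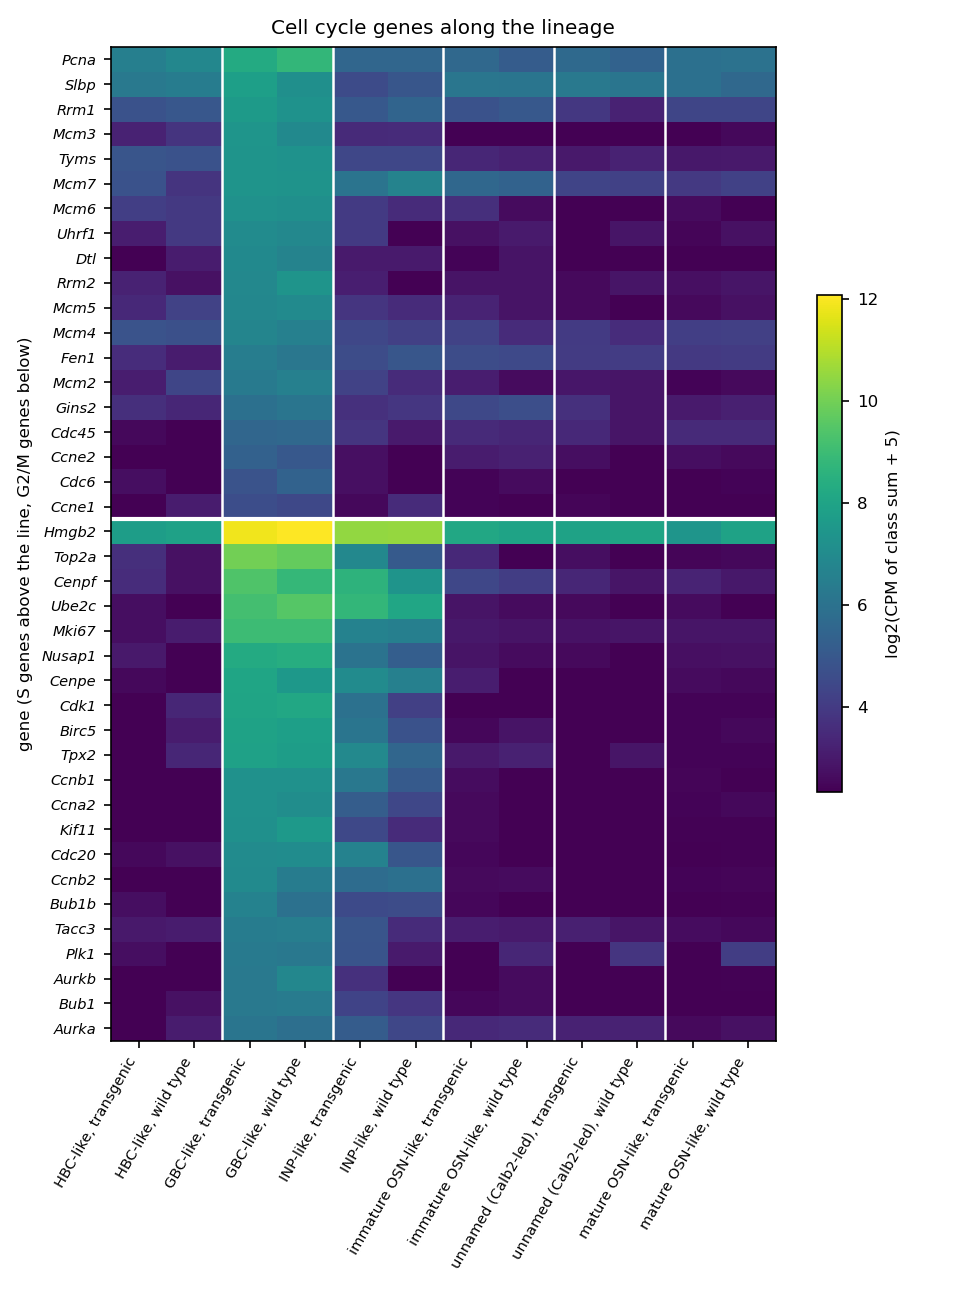
Level of each of the 40 genes, as log2 of the CPM of the class sum with 5 added, in 6 classes of the lineage (transgenic left of wild type in each); S genes are above the white line and G2/M genes below, each ordered by CPM in transgenic GBC-like barcodes. The GBC-like columns are high throughout, the INP-like columns are lower than the GBC-like ones for most genes, and Pcna, Slbp and Hmgb2 are visible in every class.

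Horizontal basal-like cells were mostly out of cycle. None of 68 transgenic HBC-like barcodes reached 0.2%, which allows up to 4.41%, and 1 of 21 wild-type ones did. At 0.1% there were 4 and 1. S genes exceeded G2/M genes here, at 1.28 (1.10 to 1.49) and 1.31 (1.06 to 1.63) UMIs for each G2/M UMI. Pcna had 88.5 CPM (transgenic) and 109 CPM (wild type), Slbp 70.8 and 79.9 CPM and the thymidylate synthase Tyms 25.1 and 22.6 CPM, while Cdk1 had 0 and 5.21 CPM and Ccnb1 0 CPM in both. Against mature OSN-like barcodes, 1 of 7 members measured was 2-fold higher in the transgenic library, where 22% of all features measured were, and 1 of 6 in the wild type, where 23.1% were; in both libraries it was Tyms. These are counts of 1 gene among few measured.

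The D cyclins Ccnd1 and Ccnd2 differed between the basal cell types. As a list, of 7 D cyclins and G1 kinases, 5 of 5 measured were 2-fold higher in HBC-like than in mature OSN-like barcodes in each library, and 5 of 5 also in GBC-like barcodes. Ccnd1 was the D cyclin of GBC-like barcodes, at 921 CPM (transgenic) and 592 CPM (wild type), and had 52.3 and 59.0 CPM in HBC-like barcodes. Ccnd2, singled out after its values were seen, was the reverse, with 481 and 792 CPM in HBC-like and 2.81 and 0 CPM in GBC-like barcodes. Of 10 antiproliferative and exit genes, all 10 were 2-fold higher in HBC-like than in mature OSN-like barcodes in each library, again beside 22% and 23.1% of all features, and 7 of 10 in GBC-like barcodes, beside 23.7% and 24.3%. Btg2, which slows proliferation, had 1010 and 1280 CPM in HBC-like, and 598 and 619 CPM in GBC-like barcodes.

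Along the neuronal lineage the regulators moved in several ways. In INP-like against GBC-like transgenic barcodes, 4 of 5 D cyclins and G1 kinases measured, 6 of 12 E2F and pocket protein genes, 2 of 5 genes of MuvB, B-Myb and FoxM1, 21 of 23 further replication genes and 28 of 36 further mitosis genes were 2-fold lower, beside the 12.7% of all features. Ccnd1 had 3.06 CPM in INP-like and 921 CPM in GBC-like barcodes, and Mybl1, the A-Myb transcription factor, 16.8 and 334 CPM. Cdk4, the partner of D cyclins, had 361 CPM in INP-like and 534 CPM in GBC-like barcodes. Of 8 inhibitors of cyclin-dependent kinases, 6 were measured and 2 were 2-fold lower. Cdkn1b had 167 CPM in INP-like and 151 CPM in GBC-like barcodes, and 18.8 CPM in immature and 1.10 CPM in mature OSN-like ones. Cdkn1a, the inhibitor p21, was instead low in INP-like (26.8 CPM) and GBC-like (14.7 CPM) transgenic barcodes and stood at 214 CPM in immature OSN-like ones; in the wild type it had 226, 30.3 and 384 CPM in the same order. Of the 70 Cdkn1a UMIs in wild-type INP-like barcodes, 52 came from the 4 with G2/M genes at 0.1% (544 CPM), and the 12 with neither phase had 83.9 CPM.

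Other genes named by rank were Cdkn1c with 30.6 CPM in INP-like and 244 CPM in GBC-like transgenic barcodes, where 281 of its 347 UMIs came from the 4 barcodes with neither phase. The retinoblastoma gene Rb1 had 95.7 CPM in INP-like and 52.0 CPM in GBC-like transgenic barcodes, and 45.1 and 43.7 CPM in the wild type. The stress and growth arrest gene Gadd45a was the exit gene that was 2-fold higher in INP-like barcodes, with 364 and 145 CPM (transgenic) and 413 and 188 CPM (wild type). Racgap1, which acts in cytokinesis, had 310 CPM in INP-like and 218 CPM in GBC-like transgenic barcodes. Among mitosis genes the condensin subunit Smc4 had 125 and 541 CPM and Cks2 173 and 452 CPM. The dUTPase Dut had 164 and 536 CPM and Atad2 57.4 and 205 CPM. Tfdp2, a partner of E2F factors, had 136 and 165 CPM, Tfdp1 65.1 and 93.4 CPM, Rbbp4 of MuvB 238 and 323 CPM and Lin37 of MuvB 21.4 and 15.5 CPM. Btg1 had 222 and 183 CPM, and Rfc2, a clamp loader subunit, 63.5 and 102 CPM.

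Outside the 40 and the further lists, 9 genes are named among those whose log2(CPM + 5) over the 29 clusters followed the summed members most closely, with Pearson r of 0.893 to 0.905, a description over clusters that share 2 libraries. They were Neil3, Knl1, Kif22, Aspm, Depdc1a, H1f5, Ska1, Pclaf and Kifc1. H1f5 had 1492 CPM in GBC-like and 0.659 CPM in mature OSN-like transgenic barcodes, and 1083 and 0.359 CPM in the wild type.

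Cycling blood cells were mostly a feature of the wild-type library. All 24 wild-type neutrophil precursor-like barcodes were cycling at 0.2%, and the transgenic library had 1 such barcode, also cycling. In the wild-type ones Hmgb2 had 6030 CPM, Mki67 807 CPM and Top2a 739 CPM, and 15 of 24 had S and G2/M genes. In neutrophil-like barcodes, the later stage, Hmgb2 still had 1339 CPM (transgenic) and 1742 CPM (wild type), while Mki67 had 26.2 and 0 CPM and Top2a 0 and 1.70 CPM. In the neutrophil-like barcodes at 0.2% (1 of 15 and 4 of 62), Hmgb2 gave 96.4% and 89.8% of the member UMIs. By the phase call, 5 of the 15 transgenic and 46 of the 62 wild-type neutrophil-like barcodes had G2/M genes alone. Of 30 wild-type erythroid-like barcodes, 20 reached 0.2%; they held Ccne1 at 123 CPM and Rrm2 at 581 CPM over the class, beside 16.8 and 158 CPM in wild-type GBC-like barcodes. In the wild type, 39 of 39 members measured were 2-fold higher in neutrophil precursor-like than in neutrophil-like barcodes (27.4% of all features higher, 17.7% lower), 40 of 40 in erythroid-like than in mature OSN-like barcodes (13.9% higher, 54.4% lower), and 39 of 39 in myeloid progenitor-like than in macrophage-like barcodes (24.5% higher, 21.1% lower).

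Over all myeloid classes, 27 of 130 transgenic barcodes were cycling at 0.1% (20.8%) and 74 of 222 wild-type ones (33.3%, 27.2 to 40.0). At 0.2% the counts were 8 (6.15%) and 50 (22.5%). The myeloid progenitor-like cluster was mixed. Its 15 wild-type barcodes with Mpo or Ctsg, enzymes of granule-forming progenitors, all reached 0.2%, whereas of 11 with Ccl17 or Mgl2 none did and of 10 with the B cell genes Cd79a or Vpreb3 3 did. In the transgenic library the same sets had 0 of 1, 0 of 10 and 2 of 6. The remaining barcodes of the cluster had none of these gene pairs at 3 UMIs. Of them, 4 of 10 wild-type and 1 of 3 transgenic ones reached 0.2%, and what cells they were was not tested. The 3 transgenic barcodes of this cluster at 0.2% carried 1977 CPM of B cell markers and 0 CPM of myeloid progenitor, macrophage or monocyte markers. Without the barcodes led by Cd79a or Vpreb3, the counts over the myeloid classes at 0.2% were 6 of 124 (4.84%) and 47 of 212 (22.2%). These counts still include the barcodes with none of the gene pairs at 3 UMIs. C1q-bearing macrophage-like barcodes had 17 of 83 transgenic and 9 of 31 wild-type at 0.1% but 3 and 0 at 0.2%. In those 3 transgenic barcodes Hmgb2 gave 83.6% of the member UMIs. Tuft-type microvillar-like barcodes, a shallow class with medians of 6567 and 6711 UMIs, had 16 of 57 and 11 of 26 at 0.1% but 0 and 2 at 0.2%.

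A few cycling barcodes sat in classes that were otherwise quiet. In sustentacular cell-like barcodes 4 of 88 transgenic and 1 of 21 wild-type ones reached 0.2%, with medians of 89012 and 85434 UMIs, against 31940.5 and 38957 UMIs in those under 0.1%. Globose basal cell markers stood at 1589 and 1299 CPM in them, against 546 and 592 CPM in those under 0.1%. The 1 transgenic fibroblast-like barcode at 0.2% carried 8267 CPM of precursor markers, against 11.8 CPM in the 87 under 0.1%. Its share was 2.09%, and the fibroblast-like level was 9.52 with it (88 barcodes), beside 2.71 in 44 wild-type barcodes. Whether these barcodes held more than 1 cell was not tested.

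Within GBC-like barcodes the 2 libraries differed little. The log2 ratio of the level, transgenic over wild type, was -0.03 (-0.08 to 0.03), and 0 of 39 members measured was 2-fold higher or lower, where 2.38% of all features were 2-fold higher and 10.8% lower. Counting intervals lay above 0 for Slbp (0.64), Cenpf (0.58), Cenpe (0.53) and Top2a (0.22) and below 0 for Pcna (-0.51), Ube2c (-0.34) and Hmgb2 (-0.20). The wild-type side rested on 9 barcodes, and the ratio moved with how they were chosen: it was 0.39 at a Leiden resolution of 2, with 6 wild-type barcodes, and 0.51 (0.42 to 0.60) when classes were set by marker UMIs, also with 6. In INP-like barcodes the log2 ratio was 0.37 (0.26 to 0.48), with 9 of 22 members measured 2-fold higher and 0 lower, where 2.98% and 5.95% of all features were. The 9 were G2/M genes, among them Plk1 (1.93), Cdk1 (1.85), Top2a (1.82) and Cdc20 (1.71). The G2/M genes there came from 14 transgenic and 4 wild-type barcodes, and barcodes of 1 library are not replicates.

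**Figure D5:**
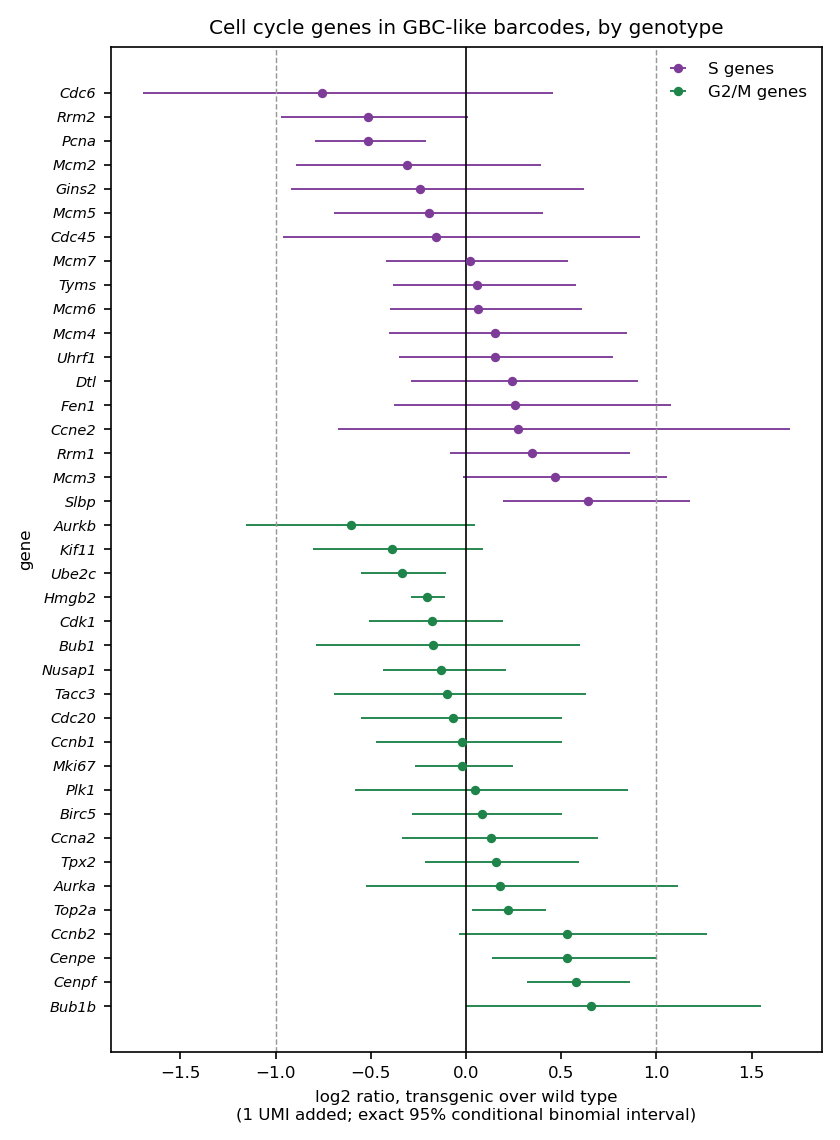
Log2 ratio of CPM, transgenic over wild type, in GBC-like barcodes for the 39 genes measured (1 UMI added; bars are exact 95% conditional binomial intervals for counting error only), S genes above and G2/M genes below; dashed lines mark 2-fold. All points lie between the dashed lines, from Cdc6 at -0.76 to Bub1b at 0.66.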

How the data were processed

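The authors deposited 1 matrix of raw UMI counts per library, unfiltered. Cell Ranger 6.1.1 and the mouse build GRCm39 are named in the submitters' processing notes; the matrix headers name another Cell Ranger version. The values are counts of UMIs per gene and barcode, as deposited. The transgenic library totalled 70572741 UMIs and the wild-type one 55701219.

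The 40 genes and the 7 lists of further cell cycle genes were chosen with earlier results of these data known. Barcodes needed 5000 UMIs, 500 genes and at most 10% mitochondrial UMIs. Scrublet marked 7 transgenic and 3 wild-type barcodes (0.385% and 0.264%), which were left out; so few marks leave most doublets in place. Barcodes of the 2 libraries entered 1 clustering, with no batch integration (scanpy 1.11.5; 2000 variable genes, 30 components, 15 neighbours, Leiden resolution 1), without the 40 genes, the lists, receptor, mitochondrial, ribosomal, immunoglobulin and transgene features. A cluster was named when at least 3 markers were 2-fold higher and their mean log2 excess was at least 1, with no more top genes of another class than its own. These names were rebuilt here. UMIs were summed per class and library; fold changes use CPM with 5 added, measured means at least 20 CPM in 1 class, and gene ratios between libraries have 1 UMI added. Intervals are exact (Poisson, binomial, or binomial conditional on the sum). A count of 0 allows up to 3 barcodes of the total. Barcodes were thinned to 5000 UMIs to compare depths. With 1 library per genotype no test was run. The named genes were the 40, in each list the 2 highest in transgenic GBC-like barcodes and the highest INP-like to GBC-like ratio, class markers, and the 10 genes most like the summed 40. The fold and interval steps were tested on simulated data. Alternatives changed the filters, the clustering, the marker rule, Hmgb2, depth, threshold and the value added. Some results that the rules above would name are not reported here.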

Additional observations from a re-analysis of the deposited data

Results flagged for a closer look

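Barcodes left out of the comparisons held cell cycle RNA as well. Among barcodes with 1000 to under 5000 UMIs and at most 10% mitochondrial UMIs, 27 of 453 in the transgenic library had at least 0.2% of their UMIs from the 40 genes (5.96%, 3.96 to 8.55), and 12 of 256 in the wild type (4.69%, 2.45 to 8.04). The intervals overlap. Among barcodes over 10% mitochondrial UMIs, the counts were 6 of 834 (0.719%) and 5 of 549 (0.911%).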

How the results depend on the processing

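All 39 members measured were 2-fold higher in GBC-like than in mature OSN-like transgenic barcodes, and the number stayed between 38 and 40 under the 10 alternatives that gave a value. Some alternatives were chosen after seeing the data. They left out the GBC-like barcode rich in erythroid markers, or the myeloid barcodes led by B cell genes. Neither moved a value beyond its counting interval. Without the erythroid-rich barcode, all 40 members were measured and 2-fold higher, against 39 as reported. The share of cycling barcodes was 8.13% (transgenic) and 12.5% (wild type) as reported. It was 10.9% and 17.8% with at most 5% mitochondrial UMIs, 4.42% and 7.58% without Hmgb2, 12.3% and 15.6% at 5000 UMIs per barcode, 33.1% and 35.2% at a threshold of 0.05%, and 4.31% and 7.75% at 0.2%. The wild-type myeloid share of 33.3% was 44.6% from 10000 UMIs, 20.3% without Hmgb2, 50% at 0.05% and 22.5% at 0.2%. With a minimum of 2000 UMIs the transgenic levels were 121 in GBC-like, 9.50 in INP-like and 5.39 in immature OSN-like barcodes, with 0.206 S UMIs per G2/M UMI in GBC-like ones. At resolution 2 they were 93.5, 63.1 and a ratio of 0.344. With cell cycle genes kept in clustering they were 132, 9.58 and 0.196. With classes from marker UMIs they were 90.3, 55.4 and 0.242, and HBC-like barcodes had 5.85. Without Hmgb2, GBC-like, INP-like, HBC-like and immature levels were 74.4, 21.2, 3.30 and 3.102, and the ratio 0.435. The INP-like level was 65.2 with at most 5% mitochondrial UMIs, and the HBC-like level 6.32 without the highest doublet scores. The log2 ratio of the GBC-like level, transgenic over wild type, was 0.070 from 2000 UMIs, 0.13 from 10000, 0.39 at resolution 2, 0.51 by marker UMIs and 0.070 without Hmgb2, against -0.03 as reported, so its sign was not stable. For each of these the cause was not tested. At resolution 0.5 and at 5% mitochondrial UMIs no cluster met the GBC-like rule, and at 5% none met the HBC-like rule, so those values could not be had. No paired analysis was possible because each genotype has 1 library. The 9 wild-type GBC-like barcodes limit every comparison of that class.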
